A study of Mus musculus with 15 samples.

Results

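Differentiated mouse fat cells given forskolin for 1 day (FSK1D) were compared with vehicle cells, gene by gene. The comparison takes in the 6 libraries that carry these labels, 3 of each, out of 15 in the series, and all genes that passed a filter on low counts in the whole table, 14421 of 24421. The cells came from MAP, an immortalized mouse line of fat-cell precursors that can be turned into fat cells in culture. Both groups, vehicle included, had first been differentiated for 2 days with insulin, dexamethasone at 1 µM, rosiglitazone at 1 µM and isobutylmethylxanthine at 500 µM, which blocks the breakdown of cAMP, and then for 2 days with insulin and rosiglitazone. Forskolin was added at day 7 to 8 and left for 24 h, and the labels give no genetic change in either group beyond the immortalization of the line. No forskolin dose and no harvest day of the vehicle cells could be taken from the labels, so treatment and any difference in culture age cannot be told apart. Whether the 3 libraries of a group stem from separate cultures is not said in the labels, so the p-values speak of the scatter among these libraries, part or all of which may be technical. Cells given forskolin for 4 h (FSK4h) or 3 days (FSK3D) made up 3 libraries each. Their levels are reported only where 1 day is placed in time. The 3 remaining libraries were of cells kept in rosiglitazone, and their levels are not reported. All of these libraries shared the filter and the fit behind every comparison.

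Forskolin is a plant diterpene that switches on adenylyl cyclase directly, without a receptor, and so raises cAMP in the cell. In fat cells noradrenaline does the same through beta-adrenergic receptors and the stimulatory G protein. cAMP then activates protein kinase A and the exchange factor Epac. Protein kinase A phosphorylates lipases and the transcription factor CREB, which binds the cAMP response element in promoters. The pathway is known for driving fat breakdown and, in brown and beige fat cells, heat production through uncoupling protein 1, and it is held in check by phosphodiesterases, repressor forms of CREM, and loss of receptors.

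Total counts were 26388586 to 31089519 in vehicle and 25638062 to 26945435 in FSK1D, and factors by the trimmed mean of M values (TMM), which adjust the library sizes, were 1.01 to 1.04. Levels are given as CPM, counts scaled to a common TMM-adjusted library size, and, unless named otherwise, in the order of libraries S1, S2 and S3 for vehicle and S7, S8 and S9 for FSK1D. Principal component 1 of the 6 libraries, with 79.9% of the variance, separated the groups, and component 2, with 6.61%, set S8 and S9 apart from each other at 13.9 and -11.2. The ribosomal RNA precursor Rn45s took 8.50% to 8.57% of counts in vehicle and 7.11% to 8.21% in FSK1D. All 7 defining adipocyte markers were expressed, with a summed level of 3500 to 3997 CPM in vehicle and 2519 to 3074 CPM in FSK1D. Of these 2 were called lower, 1 higher and 4 not called, and without Adipoq the sums overlapped, at 2050.4 to 2371 CPM and 1867 to 2346 CPM. The 6 tested progenitor markers summed to 721 to 765 CPM and 908 to 946 CPM, but without Ly6a to 603 to 630.0 CPM and 470.1 to 519 CPM, and 2 were called higher, 1 lower and 3 not called. Fewer cells of a type and less RNA of its genes per cell cannot be told apart in such libraries. Of 10 macrophage and leukocyte markers 3 were expressed enough to be tested, at 4.17 to 4.66 CPM summed in vehicle and 10.1 to 11.1 CPM in FSK1D, with Csf1r and Cd14 called higher, Cd68 not called, Tyrobp at 0 and Ptprc, Adgre1 and Itgam below the filter. Without Cd14 the sum was 2.44 to 2.66 CPM in vehicle and 4.13 to 4.95 CPM in FSK1D. Whether reads were counted by strand is not known here, and exons of Prg4, Tagln, Gapdh, Adcy3, Crem, Sik2, Cebpb, Cebpd, Srebf1, Gys1, Oxct1, Pfkfb1, Ptger4, Fgf2, Adamts4, Smpd3 and Aldh1l2 overlap another tested gene on the other strand, so the counts of these genes may include reads of that gene.

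Fold changes are log2 ± standard error (SE), FSK1D relative to vehicle, and a gene counts as called where its adjusted p is below 0.05. After 1 day 2805 genes were called higher (19.5% of those tested) and 2986 lower (20.7%), which makes 40.2% called in either direction. By at least 2-fold 542 (3.76%) were higher and 511 (3.54%) lower, and in 49.3% of genes the 3 FSK1D libraries did not overlap the 3 vehicle libraries. The genes were also grouped into 44 lists by function. Glycolytic enzymes, hypoxia targets and acute-phase genes had the highest list medians, and cholesterol synthesis, contractile and YAP, TEAD and mechanical response genes the lowest, as the plot of the lists shows.

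**Figure D1:**
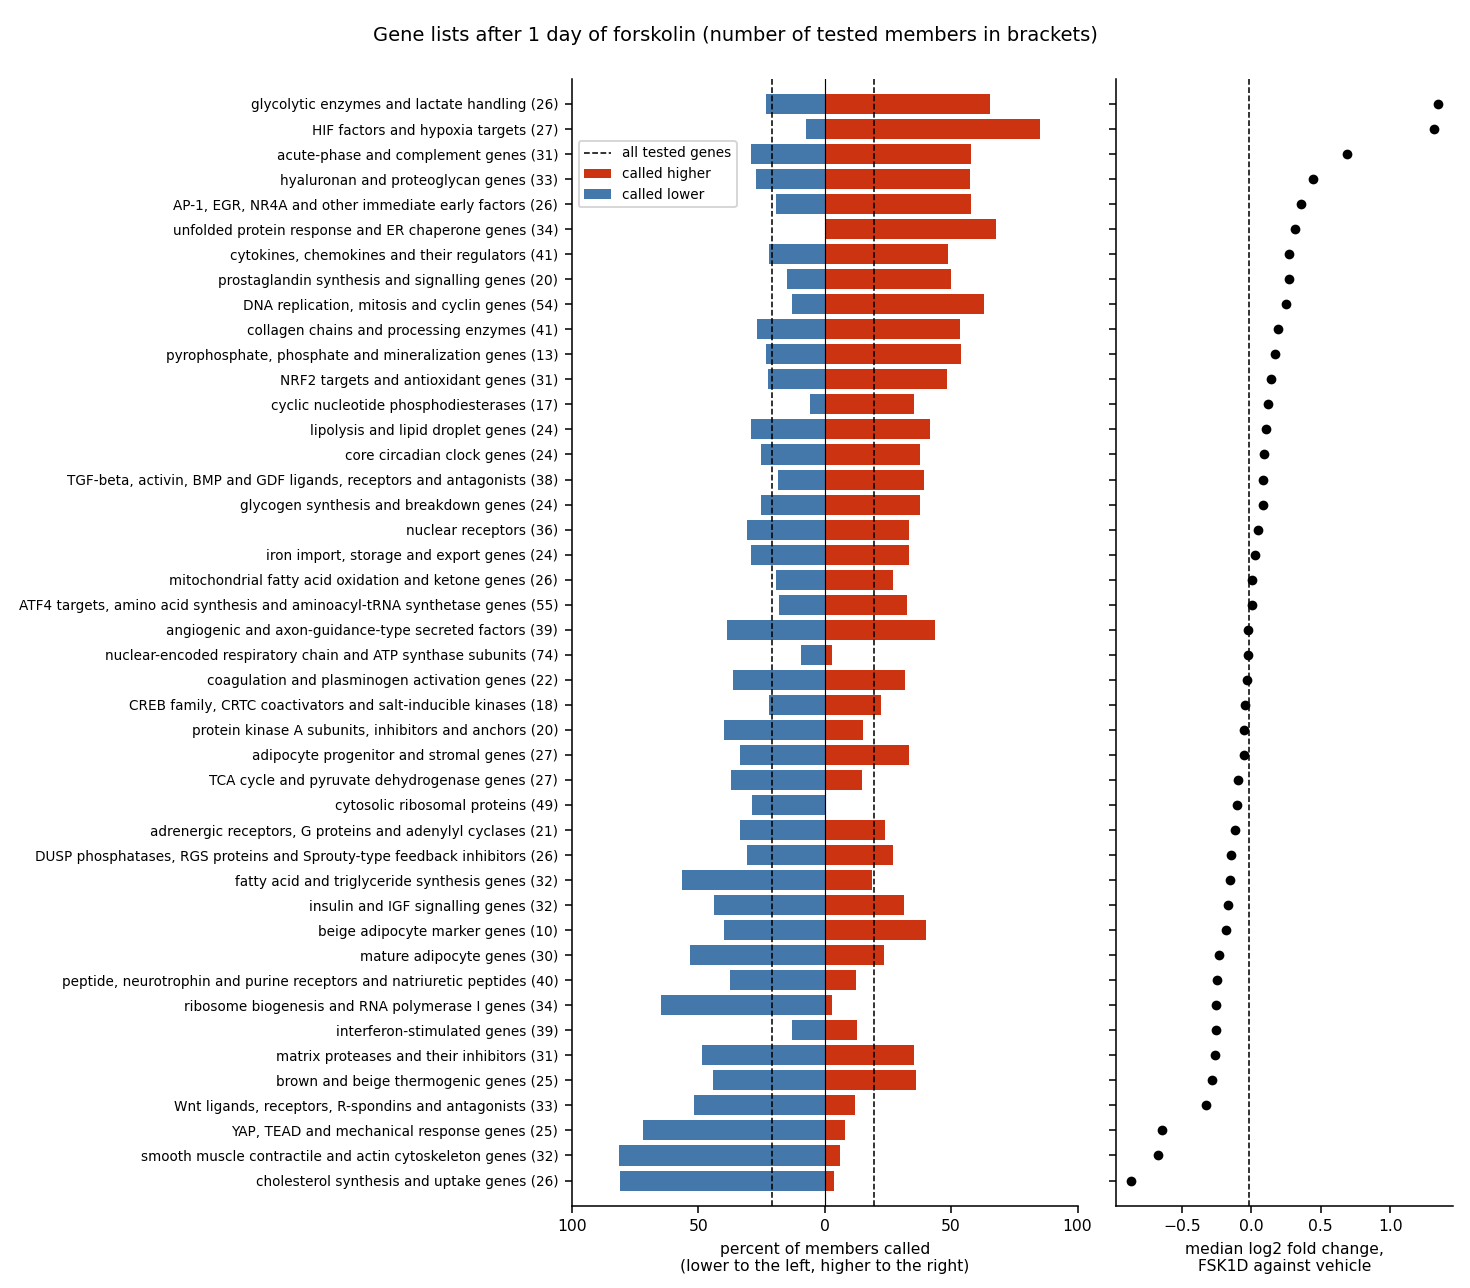
Left, the percent of tested members of each gene list that were called higher (red, to the right) or lower (blue, to the left) in FSK1D than in vehicle, with the shares over all tested genes (19.5% and 20.7%) as dashed lines. Right, the median log2 fold change of each list, beside that of all tested genes (dashed). Lists are ordered by that median, which runs from -0.86 for cholesterol genes to 1.34 for glycolytic genes.

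Among genes with at least 1 CPM in the higher group, the largest rise was in Lcn2 (GRCm38, chromosome 2, 32384633 to 32388252, minus strand), which encodes lipocalin 2, a secreted protein that binds bacterial iron carriers. Its level was 0.0617, 0.525 and 0.367 CPM in the vehicle libraries and 64.9, 65.0 and 59.0 CPM in the FSK1D libraries, a log2 fold change of 7.64 ± 0.25 (adjusted p = 5.4e-15). All FSK1D libraries stood far above all vehicle libraries. Vehicle held few counts, and the ratio of the summed counts was 203 (counting interval 121 to 371). Such intervals are exact binomial, at 95%, on counts divided by 2, and cover counting error only. Other large rises were in Prg4, the joint lubricant lubricin (6.33 ± 0.13, adjusted p = 3.35e-18), the chemokine Cxcl5 (6.45 ± 0.65), the chemokine-scavenging receptor Ackr2 (6.08 ± 0.56), Il6 (5.88 ± 0.27) and Tnfrsf9, a co-stimulatory receptor that also marks beige fat cells (5.88 ± 0.26). The receptors Gpr35 (4.96 ± 0.13), Il13ra2, the decoy receptor for interleukin 13 (4.91 ± 0.38), and Il20ra (4.74 ± 0.41) rose too, as did the cytochrome P450 gene Cyp2ab1 (5.11 ± 0.30). Cxcl5 had 2 counts over the vehicle libraries, for a count ratio of 104 (counting interval 18.1 to 4137), and Ackr2 had 4, for a count ratio of 74.6 (counting interval 20.2 to 620.2).

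The largest fall among such genes was in Ngfr (chromosome 11, 95568818 to 95587735, minus strand), a low-affinity neurotrophin receptor. It stood at 9.91, 12.5 and 11.2 CPM in vehicle and 0.619, 0.379 and 0.306 CPM in FSK1D (-4.66 ± 0.20, adjusted p = 4.71e-19). Adcyap1r1, the receptor of the neuropeptide PACAP, which couples to adenylyl cyclase, was at 87.6, 104 and 85.5 CPM in vehicle and 9.39, 11.02 and 5.90 CPM in FSK1D (-3.40 ± 0.17, adjusted p = 2.67e-09). No FSK1D library reached the lowest vehicle library in either gene. Ngfr is also among the markers of Schwann cells and neurons, of which 5 of 7 were tested, with 3 called lower and 1 higher. Their sum was 25.4 to 28.1 CPM in vehicle and 13.6 to 15.1 CPM in FSK1D, but without Ngfr it was 14.2 to 15.9 CPM and 13.2 to 14.7 CPM, and the groups overlapped. Further large falls were in Scg2, a secretogranin of secretory granules (-4.03 ± 0.68), Clca3a1 (-3.46 ± 0.21), the R-spondin Rspo2, an enhancer of Wnt signalling (-3.41 ± 0.17), the muscle methyltransferase Smyd1 (-3.27 ± 0.24), the methyltransferase Inmt (-3.71 ± 0.34), P-cadherin Cdh3 (-3.47 ± 0.62), Mmd2 (-3.23 ± 0.10) and Fstl4 (-3.15 ± 0.29). Fam180a (-4.26 ± 0.78), Klhdc8a (-3.62 ± 0.48) and Mrvi1, a substrate of cGMP-dependent kinase in smooth muscle (-3.61 ± 0.57), fell from vehicle levels of 1 to 2 CPM. Cdh3, Scg2 and Fam180a had between 5 and 8 counts over the FSK1D libraries.

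At the start of the cAMP pathway the beta-3 adrenergic receptor gene fell, and among the adenylyl cyclase genes 3 rose and 2 fell. Of the adrenergic receptor, G protein and cyclase genes, 21 were tested, of which 5 were called higher and 7 lower (median -0.12), and the counts of a list are to be read against the 19.5% and 20.7% of all tested genes. Adrb3 (chromosome 8, 27225776 to 27250616, minus strand), the beta-3 receptor of fat cells, was at 114, 137 and 120.4 CPM in vehicle and 24.3, 26.9 and 22.7 CPM in FSK1D (-2.32 ± 0.07, adjusted p = 2.39e-21). Every FSK1D library was below every vehicle library. Adrb1, the beta-1 receptor gene, was at 0.617, 0.263 and 0.147 CPM in vehicle and 0.728, 1.44 and 0.612 CPM in FSK1D and was called higher (1.39 ± 0.46, adjusted p = 0.0149), although S9 lay below the highest vehicle library. The alpha-1D receptor gene Adra1d fell (-1.34 ± 0.09, adjusted p = 6.79e-14). Adra2a, whose receptor inhibits adenylyl cyclase, rose from 0.432, 0.131 and 0.367 CPM to 3.49, 2.57 and 2.14 CPM (3.12 ± 0.36, adjusted p = 9.81e-09). Among the cyclases Adcy3 rose from 14.4, 13.6 and 13.6 CPM to 64.0, 68.0 and 71.3 CPM (2.29 ± 0.07, adjusted p = 1.48e-24), and Adcy4 rose from under 1 CPM (2.50 ± 0.39, adjusted p = 2.33e-06), while Adcy5 (-0.43 ± 0.12, adjusted p = 0.00418) and Adcy8 (-2.56 ± 0.66, adjusted p = 0.00201) fell. The Adcy5 call was lost when S2 was left out (-0.32, edgeR adjusted p = 0.0553), and the change of Adcy8 has a large SE.

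Phosphodiesterase genes, whose enzymes break down cyclic nucleotides, were mostly higher or not called: 17 were tested, of which 6 were called higher and 1 lower (median 0.12). Pde4b rose from 29.0, 24.6 and 28.1 CPM to 100.3, 87.7 and 99.2 CPM (1.81 ± 0.07, adjusted p = 7.73e-19). Pde4d, of the same cAMP-specific subfamily, rose from 56.3, 54.0 and 54.8 CPM to 113, 114 and 115 CPM (1.05 ± 0.05, adjusted p = 2.31e-18). The groups did not overlap in either gene. Pde10a (1.52 ± 0.11), Pde7b (1.21 ± 0.15) and Pde1a (1.07 ± 0.06) rose by at least 2-fold as well, and Pde2a, which cGMP stimulates, was the single member called lower (-0.30 ± 0.05, adjusted p = 1.13e-05). Among protein kinase A subunits, inhibitors and anchors 20 were tested, of which 3 were called higher and 8 lower (median -0.05), with 4 to 5 lower when any of S2, S3, S7, S8 or S9 was left out. Rapgef3, which encodes Epac1, the cAMP sensor that acts beside protein kinase A, fell from 10.2, 7.88 and 10.9 CPM to 3.42, 3.07 and 3.45 CPM (-1.55 ± 0.16, adjusted p = 9.34e-10). The anchoring protein genes Akap12 (-1.08 ± 0.06) and Akap1 (-0.50 ± 0.05) fell, the kinase inhibitor gene Pkig rose (0.79 ± 0.11) and the inhibitor gene Pkia fell (-0.66 ± 0.08).

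Many immediate early genes, some of which cAMP is known to switch on, were above vehicle after 1 day. Of the AP-1, EGR, NR4A and other immediate early genes, 26 were tested, of which 15 were called higher and 5 lower (median 0.36). The orphan nuclear receptor Nr4a1 was at 13.4, 10.6 and 10.4 CPM in vehicle and 83.5, 75.2 and 94.2 CPM in FSK1D (2.87 ± 0.09, adjusted p = 1.95e-20). Its relative Nr4a2 was at 4.69, 3.94 and 5.14 CPM and 72.3, 64.1 and 85.0 CPM (4.01 ± 0.11, adjusted p = 4.16e-22). Nr4a3 was at 2.25, 2.33 and 1.94 CPM and 25.7, 18.1 and 29.0 CPM (3.47 ± 0.22, adjusted p = 9.72e-08). All members of the NR4A family were thus far above vehicle in every FSK1D library. Over time Nr4a3 was higher at 4 h (435 ± 22.2 CPM, SD, n = 3) than at 1 day (-4.16 ± 0.15 at 1 day against 4 h, adjusted p = 1.98e-10), while Nr4a2 was higher at 1 day than at 4 h (0.82 ± 0.09, adjusted p = 8.7e-09). Ier3, an early response gene (2.20 ± 0.10), and the transcriptional repressor Bhlhe40 (1.73 ± 0.13) also rose, whereas the zinc-finger factors Egr1 (-1.002 ± 0.09) and Egr2 (-0.63 ± 0.13) fell below vehicle.

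Within the CREB family, its CRTC coactivators and the salt-inducible kinases that hold CRTC out of the nucleus, 18 were tested, of which 4 were called higher and 4 lower (median -0.05), with 2 lower when S8 or S9 was left out. Crem, whose short forms repress CREB targets, rose from 9.88, 10.47 and 11.7 CPM to 32.5, 29.7 and 35.3 CPM (1.61 ± 0.08, adjusted p = 9.85e-18). Sik1 rose from 21.5, 22.4 and 20.6 CPM to 45.2, 52.6 and 44.5 CPM (1.14 ± 0.07, adjusted p = 1.44e-15), and Sik2 fell from 208, 227 and 206 CPM to 151, 140.4 and 128 CPM (-0.61 ± 0.05, adjusted p = 3.38e-12). The 2 kinase genes thus moved in opposite directions, with no overlap of groups in either. Atf3, a stress-induced member, rose by 0.63 ± 0.12 (adjusted p = 0.000127). Of the DUSP, RGS and Sprouty feedback genes 26 were tested, of which 7 were called higher and 8 lower (median -0.15), among them Rgs2, which curbs G protein signalling (2.20 ± 0.40, adjusted p = 3.13e-05), and Rgs3 (-1.19 ± 0.12, adjusted p = 6.75e-10).

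The promoters of these genes can be read beside their response, because CREB binds the palindrome TGACGTCA and its shorter core TGACG. RefSeq promoters (GRCm38.p6) were found for 10736 of the tested genes, and the 250 bases before the start site were searched on both strands. The core, which also counts the full palindrome, was present in 11 of 19 immediate early promoters and in 26.6% of all tested promoters. The full palindrome was present in 1 of 19, that of Btg2, and in 2.69% of all. Shown are the core nearest to the start of Nr4a1, both cores of Fos, and the core of Il6, with the match in capitals (CGTCA is the same motif on the other strand):
Nr4a1 (chr15:101266780-101266836, plus strand): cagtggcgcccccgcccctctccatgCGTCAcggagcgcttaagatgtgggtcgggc
Fos (chr12:85473748-85473841, plus strand): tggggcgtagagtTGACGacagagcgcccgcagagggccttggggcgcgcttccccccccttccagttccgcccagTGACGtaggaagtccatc
Il6 (chr5:30012966-30012996, plus strand): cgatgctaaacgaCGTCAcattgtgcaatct
Nr4a1, Fos and Il6 were called higher and hold such a match, and so do genes that did not rise: the core was found in 16.7% of promoters of genes called higher by at least 2-fold and in 16.2% of those called lower by at least 2-fold. A match is a description of the sequence and not a binding site.

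Heat-production genes moved in both directions, with the uncoupling protein gene above vehicle and several regulators below. Of the brown and beige thermogenic genes 25 were tested, of which 9 were called higher and 11 lower (median -0.28). Ucp1 (chromosome 8, 83290352 to 83298452, plus strand) was at 0.0617, 0.164 and 0 CPM in vehicle and 1.24, 1.14 and 1.07 CPM in FSK1D (3.82 ± 0.47, adjusted p = 2.62e-08). From 7 vehicle counts, its count ratio was 14.8 (counting interval 4.73 to 49.5). The 3 FSK1D libraries lay close together and above all vehicle libraries. At 4 h the level was 8.42 ± 0.648 CPM and at 3 days 5.25 ± 0.939 CPM, so that the 1-day level was lower than either (-2.87 ± 0.23 against 4 h, adjusted p = 1.02e-12, and -2.17 ± 0.24 against 3 days, adjusted p = 2.12e-09). Ppargc1a, the coactivator PGC-1alpha that drives mitochondrial genes, was at 31.1, 31.9 and 31.8 CPM in vehicle and 18.6, 19.6 and 16.7 CPM in FSK1D (-0.79 ± 0.09, adjusted p = 1.51e-08). The gene was above vehicle at 4 h, at 73.8 ± 11.5 CPM, and at 3 days, at 49.3 ± 1.57 CPM. Irf4, the transcriptional partner of PGC-1alpha, was at 35.2, 41.5 and 36.2 CPM in vehicle and 9.75, 11.6 and 10.4 CPM in FSK1D (-1.83 ± 0.08, adjusted p = 7.1e-20). Ppara, a nuclear receptor for fatty acids, was at 21.5, 23.3 and 23.9 CPM and 8.48, 10.8 and 7.62 CPM (-1.35 ± 0.09, adjusted p = 1.46e-14). In Ppargc1a and Irf4 the 1-day libraries were the lowest of the 4 groups, as the plot of levels by treatment time shows.

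**Figure D2:**
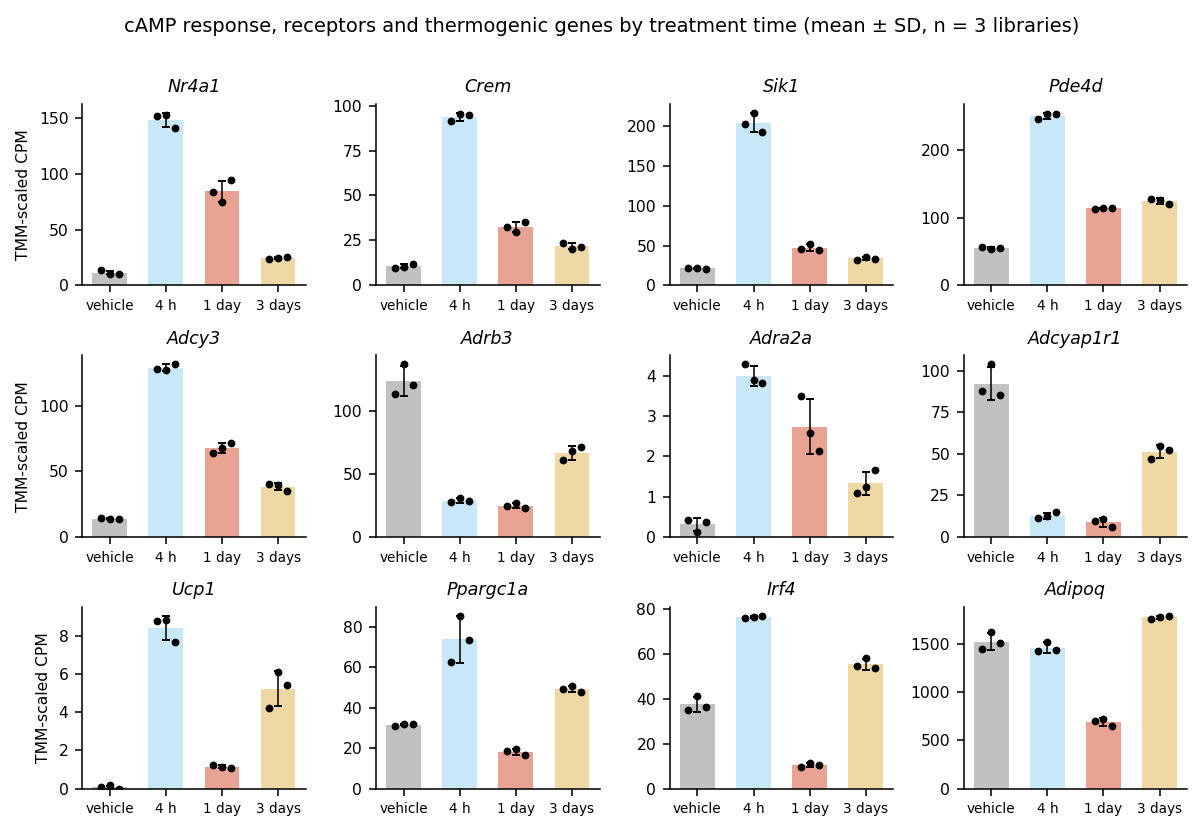
Levels in TMM-scaled CPM (linear axes from 0) of 12 genes in vehicle and after 4 h, 1 day and 3 days of forskolin; bars are means, error bars SD of 3 libraries, and points single libraries. The first 5 genes, Nr4a1 to Adcy3, are highest at 4 h and still above vehicle at 1 day, Adrb3 and Adcyap1r1 are low at 4 h and at 1 day, and Ppargc1a, Irf4 and Adipoq are lowest at 1 day.

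Fgf21, a secreted metabolic hormone (2.56 ± 0.37), Elovl3, a fatty acid elongase of brown fat (2.48 ± 0.32), and Gyk, glycerol kinase (1.96 ± 0.07, adjusted p = 1.42e-18), rose. S100b, which marks brown fat that attracts nerve fibres, fell (-1.28 ± 0.15, adjusted p = 1.93e-08). Of the 25 thermogenic genes 6 were lower at 1 day than in vehicle, at 4 h and at 3 days alike, beside 4.22% of all tested genes. Of the beige marker genes 10 were tested, of which 4 were called higher and 4 lower (median -0.19). Tnfrsf9 was at 0.123, 0.328 and 0.147 CPM and 12.9, 12.2 and 10.8 CPM, while Aqp7, the glycerol channel, fell (-1.13 ± 0.09, adjusted p = 1.45e-10).

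Mature fat-cell genes were called lower more often than higher: 30 were tested, of which 7 were called higher and 16 lower (median -0.24). Adipoq (chromosome 16, 23146536 to 23158028, plus strand), the hormone adiponectin, was at 1449.9, 1626 and 1508 CPM in vehicle and 699, 728 and 652 CPM in FSK1D (-1.14 ± 0.05, adjusted p = 2.2e-20). Car3, the carbonic anhydrase abundant in fat, was at 815, 871 and 819.5 CPM and 139, 166 and 118 CPM (-2.57 ± 0.14, adjusted p = 4.85e-08). Both genes were lower in every FSK1D library than in any vehicle library. Slc2a4, the insulin-regulated glucose transporter GLUT4 (-0.96 ± 0.15, adjusted p = 0.000258), the natriuretic peptide clearance receptor Npr3 (-1.63 ± 0.08, adjusted p = 1.21e-17), and the droplet coat protein Plin1 (-0.47 ± 0.09, adjusted p = 0.00051) fell as well. Lep, the hormone leptin, had 44 counts over the vehicle libraries and 0 over FSK1D (adjusted p = 0.000114), which is at least 6.51-fold lower, taking 3 halved counts for the whole FSK1D group as the limit that 0 counts allow. The early adipogenic factors Cebpd (2.30 ± 0.10, adjusted p = 6.43e-19) and Cebpb (1.06 ± 0.12, adjusted p = 2.77e-05) and the retinol carrier Rbp4 (1.83 ± 0.15, adjusted p = 1.1e-11) went the other way. Among progenitor and stromal genes, 27 were tested, of which 9 were called higher and 9 lower (median -0.05), with 5 lower when S9 was left out. Ly6a, the stem-cell antigen Sca-1, rose from 135, 108 and 119 CPM to 428, 438 and 427 CPM (1.83 ± 0.17, adjusted p = 5.48e-06), and the adhesion molecule Vcam1 fell from 134, 128 and 131 CPM to 52.5, 55.9 and 58.1 CPM (-1.24 ± 0.05, adjusted p = 2.14e-19).

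Fatty acid and triglyceride synthesis genes were called lower more often than higher: 32 were tested, of which 6 were called higher and 18 lower (median -0.16). Fasn, fatty acid synthase, was at 4466, 5283 and 4819 CPM in vehicle and 2025, 2078 and 1911 CPM in FSK1D (-1.28 ± 0.07, adjusted p = 3.03e-11). Acacb, an acetyl-CoA carboxylase (-1.13 ± 0.11, adjusted p = 5.39e-06), the elongase Elovl6 (-0.95 ± 0.06, adjusted p = 6.53e-15) and Thrsp, a lipogenic nuclear protein (-2.20 ± 0.18, adjusted p = 1.62e-06), fell with it. The desaturase Scd1 (0.52 ± 0.05, adjusted p = 2.37e-10) and the lipogenic factor Srebf1 (0.39 ± 0.09, adjusted p = 0.00478) were higher than in vehicle. Among lipolysis and lipid droplet genes 24 were tested, of which 10 were called higher and 7 lower (median 0.11). Hilpda, an inhibitor of the main triglyceride lipase (2.03 ± 0.14, adjusted p = 7.3e-10), the droplet proteins Plin2 (1.08 ± 0.05, adjusted p = 7.05e-19) and Plin5 (1.49 ± 0.18, adjusted p = 9.41e-07), and Hcar2, a receptor that restrains lipolysis (1.49 ± 0.13, adjusted p = 2.45e-08), rose. The lipid enzyme genes Pnpla3 (-1.005 ± 0.08, adjusted p = 1e-12) and Ces1d (-1.91 ± 0.29, adjusted p = 1.27e-06) fell.

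Few genes of the respiratory chain were called at 1 day. Of 74 tested subunits of the respiratory chain and ATP synthase 2 were called higher and 7 lower (median -0.02), a smaller share than over all genes. The lower count was 14 with library size alone as the scaling and 4 in DESeq2, and it ran from 1 to 12 when single libraries were left out (1 without S2 or S7, 3 without S9, 4 without S3 and 12 without S8). Cycs, cytochrome c, was the member with the largest rise (0.60 ± 0.06, adjusted p = 1.05e-09). At 3 days the median of the same list was 0.42. Of its 74 genes 68 were called lower at 1 day than at 3 days, beside 3639 of all 14421 tested genes. For TCA cycle and pyruvate dehydrogenase genes 27 were tested, of which 4 were called higher and 10 lower (median -0.10), with 2 higher when S1 was left out. Citrate synthase Cs was at 918, 1092 and 999 CPM and 828, 851 and 799 CPM (-0.28 ± 0.05, adjusted p = 2.66e-05). Pdk1, the kinase that switches off pyruvate dehydrogenase, was at 85.1, 100.9 and 104 CPM and 324, 346 and 319 CPM (1.77 ± 0.06, adjusted p = 3.14e-19), while the opposing phosphatase genes Pdp1 (-0.81 ± 0.08, adjusted p = 5.36e-10) and Pdp2 (-0.62 ± 0.07, adjusted p = 4.31e-09) fell. For fatty acid oxidation and ketone genes 26 were tested, of which 7 were called higher and 5 lower (median 0.01), with 3 lower when S7 was left out. Cpt1a, which admits long-chain fatty acids to mitochondria, rose from 99.2, 91.7 and 100.01 CPM to 215, 206 and 218 CPM (1.14 ± 0.05, adjusted p = 1.34e-18), and Oxct1, which uses ketone bodies, fell (-0.78 ± 0.04, adjusted p = 3.7e-17).

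Each step of glycolysis from hexokinase to lactate dehydrogenase had at least 1 gene that rose. Of the glycolytic and lactate genes 26 were tested, of which 17 were called higher and 6 lower (median 1.34), and 15 of the 17 rose by at least 2-fold. Pgk1 (chromosome X, 106187100 to 106203699, plus strand), phosphoglycerate kinase, was at 101.3, 108 and 110.4 CPM in vehicle and 361, 399 and 353 CPM in FSK1D (1.80 ± 0.05, adjusted p = 1.48e-24). Gapdh was at 209, 211 and 228 CPM and 697, 783 and 719 CPM (1.76 ± 0.05, adjusted p = 1.14e-23). The groups were widely separated in both genes, each of which has processed pseudogenes that could share reads. Aldolase C, Aldoc (2.26 ± 0.19, adjusted p = 6.86e-12), and the lactate exporter Slc16a3 (1.94 ± 0.16, adjusted p = 1.58e-12) had the largest fold changes of the list. The 6 members called lower included Pfkfb3, which makes the activator of phosphofructokinase (-0.56 ± 0.06, adjusted p = 8.43e-08), its relative Pfkfb1 (-0.54 ± 0.08, adjusted p = 5.98e-07), and Slc2a4.

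Hypoxia targets rose alongside: 27 were tested, of which 23 were called higher and 2 lower (median 1.32). Egln3, an oxygen-sensing prolyl hydroxylase, was at 11.6, 22.2 and 17.3 CPM in vehicle and 101.01, 118 and 89.5 CPM in FSK1D (2.60 ± 0.21, adjusted p = 1.31e-06). Ddit4, an inhibitor of the growth kinase mTORC1, was at 41.4, 44.5 and 48.8 CPM and 250.5, 297 and 249 CPM (2.57 ± 0.12, adjusted p = 3.01e-09). Ero1l, an oxidase that forms disulphide bonds in the endoplasmic reticulum, rose too (2.04 ± 0.08, adjusted p = 4.79e-13). Every FSK1D library exceeded every vehicle library in these 3 genes. The peptide hormone Adm (-0.86 ± 0.12, adjusted p = 3.74e-07) and Epas1, which encodes HIF-2alpha (-0.68 ± 0.13, adjusted p = 7.8e-05), were the 2 members called lower. The core of the hypoxia response element, ACGTG, was present in 11 of 21 hypoxia promoters and 10 of 24 glycolytic promoters, beside 21.4% of all tested promoters. It also counts the E-box CACGTG, which 8.31% of all tested promoters hold. Shown are the promoter stretches of Pgk1 and Egln3 with their matches in capitals (CACGT is the same motif on the other strand):
Pgk1 (chrX:106186937-106186986, plus strand): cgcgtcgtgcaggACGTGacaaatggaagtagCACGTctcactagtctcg
Egln3 (chr12:54204086-54204116, minus strand): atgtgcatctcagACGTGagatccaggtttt
Among genes called higher by at least 2-fold the share with this core was 20%, and among those called lower by at least 2-fold it was 15.6%.

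**Figure D3:**
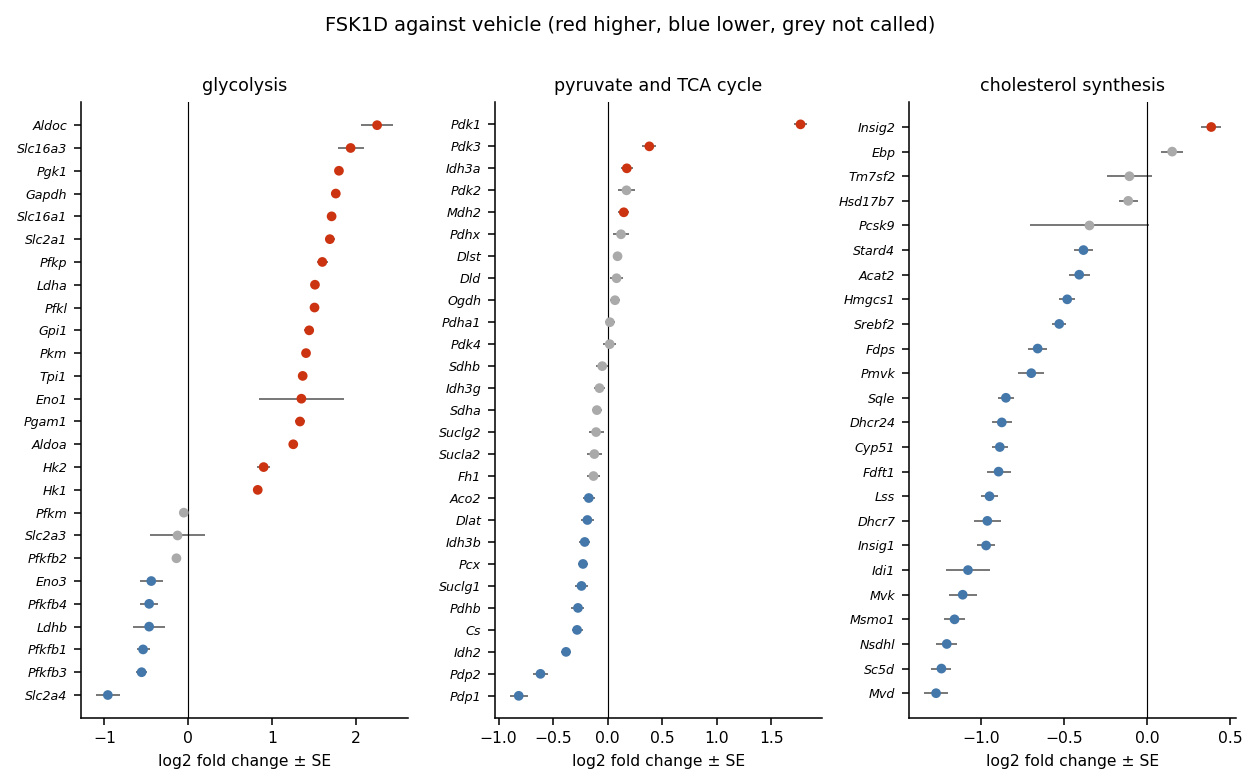
Log2 fold change ± SE, FSK1D against vehicle, of tested members of 3 lists: glycolysis, pyruvate and TCA cycle, and cholesterol synthesis and uptake; red points were called higher, blue lower and grey not called. The glycolytic enzymes sit mostly above 1, the TCA genes near 0 with Pdk1 apart at 1.77, and the cholesterol genes mostly below 0.

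Glycogen genes moved in both directions: 24 were tested, of which 9 were called higher and 6 lower (median 0.08). Glycogen synthase Gys1 (1.48 ± 0.05, adjusted p = 2.88e-21) and the branching enzyme Gbe1 (1.36 ± 0.08, adjusted p = 3.99e-12) rose. The phosphorylase genes went apart, with Pygl up from 2.53, 2.92 and 2.83 CPM to 8.11, 8.63 and 7.62 CPM (1.56 ± 0.18, adjusted p = 4.56e-09) and Pygb down from 138, 139.5 and 136 CPM to 74.0, 75.3 and 73.9 CPM (-0.89 ± 0.05, adjusted p = 1.54e-16). The phosphorylase kinase subunit gene Phka2 (-0.82 ± 0.05, adjusted p = 4.16e-16) and the glycogen primer glycogenin, Gyg (-0.66 ± 0.05, adjusted p = 2.35e-12), fell.

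Most genes of cholesterol synthesis and uptake fell: 26 were tested, of which 1 was called higher and 21 lower (median -0.86), with 2 higher when S2 or S7 was left out. Mvd, an enzyme of the mevalonate pathway, was at 44.5, 47.6 and 48.8 CPM in vehicle and 20.05, 17.9 and 20.3 CPM in FSK1D (-1.27 ± 0.07, adjusted p = 4.44e-16). Msmo1, a sterol oxidase, was at 164, 181 and 190.4 CPM and 85.9, 73.1 and 80.4 CPM (-1.16 ± 0.06, adjusted p = 2.03e-14). No FSK1D library overlapped vehicle in either gene. Nsdhl (-1.21 ± 0.06, adjusted p = 2.58e-17) and Sc5d (-1.24 ± 0.06, adjusted p = 4.18e-18), later enzymes of the pathway, fell by more than 2-fold, and Insig2, which retains the sterol sensor in the endoplasmic reticulum, was called higher (0.39 ± 0.06, adjusted p = 2.28e-06). The 8-base core of the sterol element, CACCCCAC, was found in 2 of 18 of these promoters and in 2.65% of all.

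In the insulin pathway the receptor substrate genes Irs1 and Irs3 were among those that fell. Of the other substrate genes on the list, Irs2 was tested but is not described here, and Irs4 was not tested. Irs1, the adaptor that links the insulin receptor to its kinases, was at 564, 607 and 568 CPM in vehicle and 213, 218 and 188 CPM in FSK1D (-1.49 ± 0.05, adjusted p = 1.3e-22). Irs3, a second insulin receptor substrate, which rodents express in fat, was at 8.77, 11.1 and 10.6 CPM and 2.91, 3.86 and 3.18 CPM (-1.61 ± 0.15, adjusted p = 3.35e-10). All FSK1D libraries were below all vehicle libraries in both. Of the insulin and IGF genes 32 were tested, of which 10 were called higher and 14 lower (median -0.17). Tbc1d4, which holds back GLUT4 vesicles, fell (-0.70 ± 0.06, adjusted p = 2.29e-11). Enpp1, an ectoenzyme known to inhibit the insulin receptor (1.38 ± 0.06, adjusted p = 4.49e-19), the IGF carrier Igfbp3 (1.73 ± 0.19, adjusted p = 2.25e-09) and Pappa, the protease that frees IGF (1.34 ± 0.07, adjusted p = 2.79e-17), rose, while the related protease gene Pappa2 fell (-1.14 ± 0.11, adjusted p = 9.93e-11).

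Acute-phase genes, best known from liver and from inflamed fat, formed the third-highest list: 31 were tested, of which 18 were called higher and 9 lower (median 0.69). Beside Lcn2, Saa3, serum amyloid A3, was at 0.432, 0.525 and 0.294 CPM in vehicle and 8.11, 7.53 and 10.8 CPM in FSK1D (4.37 ± 0.28, adjusted p = 4.22e-15). Steap4, a metal reductase of fat cells, was at 171, 188 and 185 CPM and 639.7, 623 and 608 CPM (1.78 ± 0.05, adjusted p = 6.92e-24). Coagulation factor F5 was at 0.123, 0.131 and 0.220 CPM and 3.31, 3.45 and 3.90 CPM (4.47 ± 0.42, adjusted p = 9.19e-11). In each of them the lowest FSK1D library was above the highest vehicle library. Fga, the fibrinogen alpha chain, rose from 13 counts over the vehicle libraries to 6.004, 5.79 and 5.36 CPM (5.26 ± 0.32, adjusted p = 1.22e-15). Of the 31 tested genes 11 were higher at 1 day than in vehicle, at 4 h and at 3 days alike, beside 4.92% of all tested genes. The complement proteases C1s1 (-1.16 ± 0.07, adjusted p = 4.04e-13) and C1ra (-1.01 ± 0.10, adjusted p = 6.9e-10) and the serpin gene Serpina3c (-1.02 ± 0.09, adjusted p = 5.4e-11) fell. The Serpina3 genes are near-identical copies whose reads the counting could split.

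Cytokine, chemokine and regulator genes were called higher more often than lower: 41 were tested, of which 20 were called higher and 9 lower (median 0.27), and 16 of the 20 by at least 2-fold. Il6 (chromosome 5, 30013114 to 30019981, plus strand) was at 0.123, 0.197 and 0.330 CPM in vehicle and 12.5, 9.09 and 16.5 CPM in FSK1D (5.88 ± 0.27, adjusted p = 1.83e-17). Tnfsf11, the osteoclast factor RANKL, was at 0, 0.131 and 0.0734 CPM and 2.04, 2.08 and 2.45 CPM (4.95 ± 0.55, adjusted p = 2.95e-09). Ackr3, a scavenger receptor for the chemokine CXCL12, was at 5.00, 5.51 and 4.70 CPM and 83.3, 80.4 and 88.5 CPM (4.05 ± 0.09, adjusted p = 9.45e-27). Its ligand moved the other way: Cxcl12 was at 442, 389.7 and 392 CPM in vehicle and 66.8, 65.6 and 63.8 CPM in FSK1D (-2.64 ± 0.08, adjusted p = 1.14e-14). Lifr, the receptor of leukaemia inhibitory factor, fell too (-1.32 ± 0.05, adjusted p = 1.23e-20). The summed leukocyte markers given above were higher in FSK1D, at 10.1 to 11.1 CPM against 4.17 to 4.66 CPM in vehicle. Without Cd14 they were at 4.13 to 4.95 CPM against 2.44 to 2.66 CPM, and their part in these results was not tested.

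Prostaglandin genes included several that rose by at least 2-fold: 20 were tested, of which 10 were called higher and 3 lower (median 0.27). Ptgs1, cyclooxygenase 1, was at 30.7, 25.2 and 25.7 CPM in vehicle and 129, 124 and 147 CPM in FSK1D (2.29 ± 0.08, adjusted p = 8.25e-21). The phospholipase genes Pla2g5 (2.02 ± 0.27, adjusted p = 2.07e-07) and Pla2g2e (1.31 ± 0.17, adjusted p = 9.01e-08) and the prostaglandin F receptor gene Ptgfr (1.32 ± 0.08, adjusted p = 3.53e-12) rose, while Ptger4, a prostaglandin E receptor that couples to adenylyl cyclase (-1.58 ± 0.22, adjusted p = 4.78e-07), and the fat-cell phospholipase gene Pla2g16 (-0.90 ± 0.08, adjusted p = 1.79e-07) fell.

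The number of interferon-stimulated genes called lower moved with the libraries and settings used. Of this list 39 were tested, of which 5 were called higher and 5 lower (median -0.26), with 10 lower without S8, 2 in a fit of the 6 libraries alone and 18 with no filter on low counts, and with 3 lower without S1, S3, S7 or S9. Ifit2, an RNA-binding effector, was at 91.8, 73.8 and 83.8 CPM in vehicle and 28.0, 34.2 and 27.2 CPM in FSK1D (-1.48 ± 0.17, adjusted p = 2.1e-05). The nucleic acid sensor Zbp1 was at 6.76, 4.53 and 4.00 CPM and 25.9, 35.1 and 18.3 CPM (2.37 ± 0.38, adjusted p = 0.000384). S8 held the highest FSK1D level in both genes.

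Most contractile genes fell. Of the smooth muscle contractile and actin cytoskeleton genes 32 were tested, of which 2 were called higher and 26 lower (median -0.68). Acta2, the actin of smooth muscle (chromosome 19, 34241090 to 34255590, minus strand), was at 215, 209.7 and 218 CPM in vehicle and 15.9, 15.1 and 17.2 CPM in FSK1D (-3.74 ± 0.06, adjusted p = 3.09e-31). Tagln, the actin-binding protein transgelin, was at 31.7, 35.1 and 36.0 CPM and 3.09, 4.01 and 3.71 CPM (-3.25 ± 0.11, adjusted p = 4.63e-22). Myl9, a myosin light chain, was at 36.8, 35.6 and 37.7 CPM and 4.95, 5.38 and 6.66 CPM (-2.70 ± 0.10, adjusted p = 2.41e-21). The vehicle libraries were tightly grouped and lay far above the FSK1D libraries in all 3 genes. Acta1, the skeletal muscle actin, fell as well (-1.71 ± 0.18, adjusted p = 6.09e-10), but it is nearly identical in sequence to Acta2 and its counts are uncertain. The tropomyosin gene Tpm4 (0.30 ± 0.04, adjusted p = 4.62e-07) and caldesmon, Cald1 (0.23 ± 0.06, adjusted p = 0.00152), were the 2 members called higher. The 6 tested pericyte and vascular smooth muscle markers summed to 30.9 to 34.6 CPM in vehicle and 62.4 to 67.7 CPM in FSK1D, with 1 of them, Notch3, called higher and 1 lower. Without Notch3 the sums were 7.85 to 10.3 CPM and 6.47 to 7.84 CPM.

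Many smooth muscle genes are known targets of serum response factor, which binds the CArG box. The box was present in 5 of 26 contractile promoters (Acta1, Cnn2, Myl9, Vcl and Srf) and in 1.22% of all tested promoters. Shown are those of Myl9 and Vcl, with the box in capitals:
Myl9 (chr2:156775290-156775325, plus strand): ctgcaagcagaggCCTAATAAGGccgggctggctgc
Vcl (chr14:20929158-20929193, plus strand): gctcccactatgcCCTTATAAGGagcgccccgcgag
The boxes lie 161 to 152 bases (Myl9) and 227 to 218 bases (Vcl) before the start site. Both genes were called lower, as were 26 of the 32 tested contractile genes, and no box was found for Acta2. Among genes called higher by at least 2-fold 0.769% of promoters held a box, and among those called lower by at least 2-fold 1.96%. Whether the box has a part in the falls was not tested.

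YAP and TEAD act downstream of cell stretch and are inhibited downstream of cAMP. Of a list that holds these factors, the kinases that restrain them, targets and other mechanical response genes, 25 were tested, of which 2 were called higher and 18 lower (median -0.64). Ankrd1, a standard reporter of YAP, was at 36.7, 30.2 and 28.2 CPM in vehicle and 12.04, 12.99 and 9.57 CPM in FSK1D (-1.46 ± 0.13, adjusted p = 2.85e-10). F3, tissue factor, was at 214, 188 and 193 CPM and 59.9, 61.9 and 64.7 CPM (-1.68 ± 0.12, adjusted p = 2.47e-07). Every FSK1D library lay below vehicle in both. The growth factor gene Tgfb2 fell as well (-1.47 ± 0.11, adjusted p = 1.33e-13), whereas Fgf2 (0.70 ± 0.13, adjusted p = 3.18e-05) and Wwtr1, which encodes the YAP relative TAZ (0.23 ± 0.05, adjusted p = 0.000129), were called higher.

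Collagen genes were called higher more often than lower. Of collagen chains and their processing enzymes 41 were tested, of which 22 were called higher and 11 lower (median 0.19). Col3a1, the fibrillar collagen III chain, was at 665, 713 and 707 CPM in vehicle and 2701, 2499 and 2799 CPM in FSK1D (1.94 ± 0.06, adjusted p = 7.1e-23). The prolyl hydroxylase P4ha2 (1.57 ± 0.06, adjusted p = 2.88e-21), the lysyl hydroxylase Plod1 (1.45 ± 0.05, adjusted p = 1.66e-21) and Col27a1 (1.58 ± 0.09, adjusted p = 5.78e-17) rose with it. The basement membrane chains Col4a5 (-0.70 ± 0.05, adjusted p = 3.55e-14) and Col4a6 (-1.23 ± 0.17, adjusted p = 2.18e-07) fell.

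Hyaluronan and proteoglycan genes showed wider changes: 33 were tested, of which 19 were called higher and 9 lower (median 0.44). Prg4 was at 2.78, 2.49 and 2.09 CPM in vehicle and 211, 181 and 204 CPM in FSK1D. Vcan, versican, a large proteoglycan that binds hyaluronan, was at 463, 447 and 488 CPM and 2607, 2371 and 2730.4 CPM (2.46 ± 0.07, adjusted p = 1.6e-18). Dcn, decorin, was at 6.45, 6.43 and 5.50 CPM and 41.0, 34.5 and 40.3 CPM (2.65 ± 0.13, adjusted p = 1.5e-16). The groups were far apart in all 3 genes. Gfpt2, which feeds the synthesis of hyaluronan precursors, rose (3.03 ± 0.11, adjusted p = 2.75e-22). Ogn, osteoglycin, went from 269, 262 and 307 CPM to 52.7, 47.9 and 54.2 CPM (-2.44 ± 0.07, adjusted p = 1.22e-20), and Itih5, which belongs to the hyaluronan-binding inter-alpha-trypsin inhibitors, fell too (-1.55 ± 0.12, adjusted p = 3.44e-12).

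**Figure D4:**
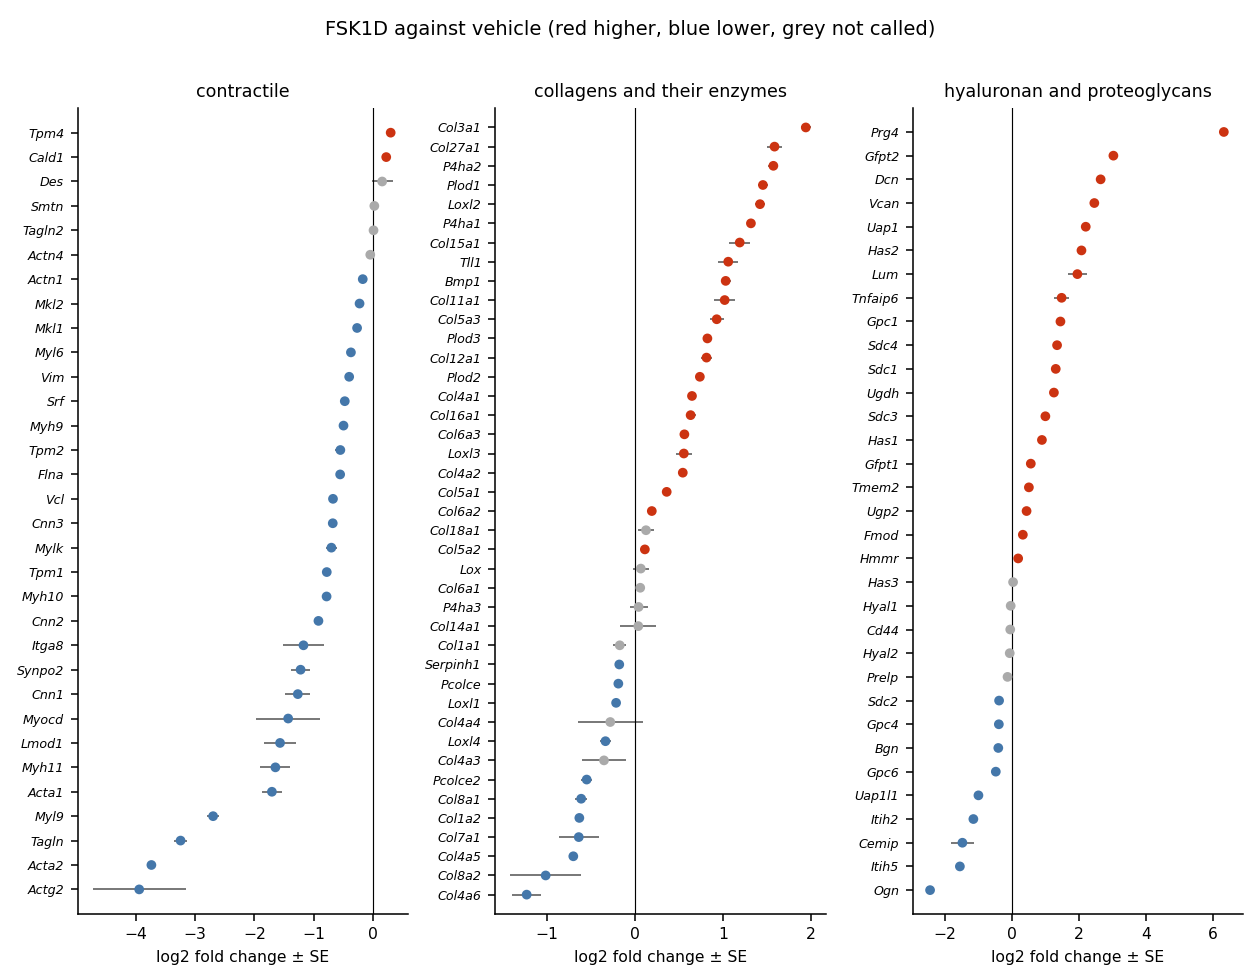
Log2 fold change ± SE, FSK1D against vehicle, of each tested member of the contractile, collagen and hyaluronan and proteoglycan lists; red points were called higher, blue lower and grey not called. Acta2 at -3.74 and Tagln at -3.25 lie far below most contractile genes with small errors, Actg2 lies as low with a large error, the collagen list spreads on both sides of 0, and Prg4 stands apart at 6.33.

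Among matrix proteases and their inhibitors 31 were tested, of which 11 were called higher and 15 lower (median -0.26). The aggrecanase Adamts4 (1.89 ± 0.10, adjusted p = 1.43e-16) and the metalloprotease inhibitor Timp1 (1.88 ± 0.07, adjusted p = 1.49e-18) rose, and Adamts5 (-1.32 ± 0.05, adjusted p = 1.4e-20), Adamts12 (-1.16 ± 0.06, adjusted p = 3.84e-18) and Timp2 (-0.92 ± 0.06, adjusted p = 7.08e-14) fell. Adamts4 and Adamts5, which both cut aggrecan and versican, thus moved in opposite directions. Of phosphate and mineralization genes 13 were tested, of which 7 were called higher and 3 lower (median 0.17). Alpl, tissue-nonspecific alkaline phosphatase, was at 47.8, 47.6 and 44.8 CPM in vehicle and 230.0, 266 and 226 CPM in FSK1D (2.36 ± 0.06, adjusted p = 1.18e-26), and Spp1, osteopontin, at 391, 373 and 394 CPM and 1392, 1285 and 1752 CPM (1.93 ± 0.09, adjusted p = 3.48e-10). Stc1, the hormone stanniocalcin 1, rose by 3.51 ± 0.31 (adjusted p = 1.93e-11), and the neutral sphingomyelinase gene Smpd3 fell (-2.33 ± 0.15, adjusted p = 4.12e-11).

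Secreted signals and their receptors changed in several families. Wnt ligands, receptors, R-spondins and antagonists were called lower more often than higher: 33 were tested, of which 4 were called higher and 17 lower (median -0.33). Rspo2 was at 25.3, 22.8 and 24.5 CPM in vehicle and 2.58, 2.65 and 1.57 CPM in FSK1D (adjusted p = 6.41e-17), and Rspo3 (-1.67 ± 0.38, adjusted p = 0.000493), the R-spondin receptor Lgr5 (-1.87 ± 0.50, adjusted p = 0.0026), the Wnt effector Lef1 (-2.03 ± 0.40, adjusted p = 8.19e-05) and the Wnt modulator Sfrp2 (-1.20 ± 0.14, adjusted p = 7.28e-06) fell. Of the TGF-beta, activin and BMP genes 38 were tested, of which 15 were called higher and 7 lower (median 0.08). The activin receptor gene Acvr1b was at 18.7, 19.6 and 19.1 CPM and 74.0, 69.0 and 70.3 CPM (1.89 ± 0.07, adjusted p = 7.13e-21), and Inhba, which encodes the activin A subunit, rose as well (1.15 ± 0.11, adjusted p = 1.24e-07). Of angiogenic and guidance factors 39 were tested, of which 17 were called higher and 15 lower (median -0.02). The placental growth factor gene Pgf (3.44 ± 0.43, adjusted p = 3.27e-08), Fgf7 (1.40 ± 0.12, adjusted p = 7.14e-07) and Hgf (1.32 ± 0.11, adjusted p = 1.33e-08) rose, and Nrg1, a ligand of ERBB receptors (-1.46 ± 0.11, adjusted p = 1.84e-12), and the semaphorin gene Sema3d (-2.24 ± 0.48, adjusted p = 0.00029) fell.

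Receptors of peptides, neurotrophins and purines were called lower more often than higher: 40 were tested, of which 5 were called higher and 15 lower (median -0.25), with 3 higher in a fit of the 6 libraries alone. Mc5r, a melanocortin receptor that couples to adenylyl cyclase, was at 7.78, 8.40 and 8.07 CPM in vehicle and 1.42, 1.93 and 1.91 CPM in FSK1D (-2.20 ± 0.18, adjusted p = 4.16e-12). The oxytocin receptor gene Oxtr fell too (-2.08 ± 0.34, adjusted p = 1.26e-05), while Adora2b, whose adenosine receptor couples to adenylyl cyclase as well (0.82 ± 0.20, adjusted p = 0.000956), and the sphingosine phosphate receptor gene S1pr1 (0.96 ± 0.08, adjusted p = 6.97e-12) rose. In coagulation and plasminogen genes 22 were tested, of which 7 were called higher and 8 lower (median -0.03). Endothelial markers, which share Vwf with this list, 4 of 7 of them tested and 3 called lower, summed to 7.58 to 11.3 CPM in vehicle and 4.29 to 5.63 CPM in FSK1D, and their part in these counts was not tested. Thrombospondin 1, Thbs1, was at 2665, 2307 and 2416 CPM and 817, 723 and 965 CPM (-1.56 ± 0.09, adjusted p = 1.6e-09), Gas6, a ligand of TAM receptors, fell (-2.01 ± 0.06, adjusted p = 5.06e-24), and thrombomodulin, Thbd, rose (1.43 ± 0.05, adjusted p = 4.69e-23).

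Replication, mitosis and cyclin genes were higher by small amounts: 54 were tested, of which 34 were called higher and 7 lower (median 0.25), but only 1 of the 34 by at least 2-fold. Cyclin E1, Ccne1, was at 20.6, 19.6 and 18.6 CPM in vehicle and 39.4, 37.3 and 35.0 CPM in FSK1D (0.92 ± 0.08, adjusted p = 2.87e-11). The proliferation marker Mki67 was at 437, 402 and 419 CPM and 442, 453 and 435 CPM (0.08 ± 0.05, adjusted p = 0.181), and its libraries overlapped. Cyclin D1, Ccnd1, was at 68.8, 69.4 and 75.7 CPM and 12.5, 11.9 and 11.1 CPM (-2.59 ± 0.10, adjusted p = 7.26e-20), and the cell cycle inhibitor gene Cdkn2b fell (-0.98 ± 0.07, adjusted p = 4.35e-13).

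Genes of protein folding were higher and those of ribosome production lower. Of the unfolded protein response and chaperone genes 34 were tested, of which 23 were called higher and 0 lower (median 0.31). In edgeR 0 of the 34 were lower at an unadjusted p under 0.05, and DESeq2 called 0 lower. Xbp1, its main transcription factor (0.94 ± 0.05, adjusted p = 4.57e-18), and the chaperone genes Creld2 (0.94 ± 0.07, adjusted p = 5.9e-14) and Sdf2l1 (0.87 ± 0.12, adjusted p = 1.97e-07) rose. Of ribosome biogenesis and RNA polymerase I genes 34 were tested, of which 1 was called higher and 22 lower (median -0.25). That 1 call was lost when S2, S3 or S9 was left out. All 34 were called lower at 1 day than at 4 h, when their median was 0.70, beside 4164 of all 14421 tested genes. Polr1b, a subunit of RNA polymerase I, was at 30.5, 30.0 and 31.0 CPM in vehicle and 20.6, 19.7 and 19.1 CPM in FSK1D (-0.62 ± 0.07, adjusted p = 9.69e-09). Of cytosolic ribosomal proteins 49 were tested, of which 0 were called higher and 14 lower (median -0.10), 0 higher at an unadjusted p under 0.05 in edgeR and 0 called higher by DESeq2, with 6 to 9 lower when S1, S2, S3, S7 or S9 was left out singly. Counts of the ribosomal RNA precursor gene Rn45s were not called different (-0.14 ± 0.12, adjusted p = 0.388). Ribosomal RNA was removed before the libraries were made, so these counts do not measure ribosomal RNA synthesis. Of ATF4 targets, amino acid and aminoacyl-tRNA synthetase genes 55 were tested, of which 18 were called higher and 10 lower (median 0.00), with the serine synthesis enzyme Phgdh (-0.99 ± 0.06, adjusted p = 1.4e-13) and the amino acid transporter Slc7a5 (-0.76 ± 0.06, adjusted p = 4.77e-11) lower and the one-carbon enzyme Aldh1l2 higher (0.94 ± 0.05, adjusted p = 1.52e-17).

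The position of 1 day in the time course was tested directly against the other forskolin groups. The labels give day 7 to 8 as the start of treatment for all of them, and the same vehicle libraries serve every time. Time in forskolin and any difference in culture age therefore cannot be told apart. Against FSK4h 57.3% of genes were called and against FSK3D 51%, and the 3 comparisons share the FSK1D libraries. A gene was counted as a 1-day peak where FSK1D was called higher than vehicle, FSK4h and FSK3D, which held for 709 genes (4.92%), and as a 1-day trough where it was called lower than all 3, which held for 608 (4.22%). Among the peaks with the largest margin was Lcn2, at 1.97 ± 0.116 CPM at 4 h and 5.63 ± 1.93 CPM at 3 days. Il13ra2, Saa3, Stc1, the small GTPase gene Rasl10b, the serpin gene Serpina3i, Arl14epl and the noradrenaline transporter gene Slc6a2 completed the 8 largest. Slc6a2 was at 0.617, 0.131 and 0.183 CPM in vehicle and 2.00, 2.16 and 2.76 CPM at 1 day, and 0.305 ± 0.117 CPM at 4 h and 0.468 ± 0.189 CPM at 3 days. Slc6a2 was not called against vehicle at 4 h (adjusted p = 0.97) or 3 days (adjusted p = 0.348), and the 1-day level rests on 184 counts over the group.

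The 8 troughs with the largest margin were Ngfr, Scg2, Clca3a1, Smyd1, Mmd2, Fstl4, the stem-cell factor receptor gene Kit, and Car3. Ngfr was at 3.19 ± 0.450 CPM at 4 h and 17.2 ± 1.90 CPM at 3 days, above vehicle at the latter time (0.63 ± 0.12, adjusted p = 2.08e-05). Irs1 was a trough too, at 531 ± 19.7 CPM at 4 h and 617 ± 28.2 CPM at 3 days against 206 ± 15.96 CPM at 1 day. Of the lists, glycolysis held 9 peaks among 26 tested genes, collagen 11 among 41, acute-phase 11 among 31 and cell cycle 20 among 54. Troughs numbered 12 among 30 mature fat-cell genes, 10 among 32 lipogenic genes, 8 among 27 TCA genes, 10 among 26 cholesterol genes and 9 among 32 contractile genes. These counts are to be read against 4.92% and 4.22% of all tested genes.

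**Figure D5:**
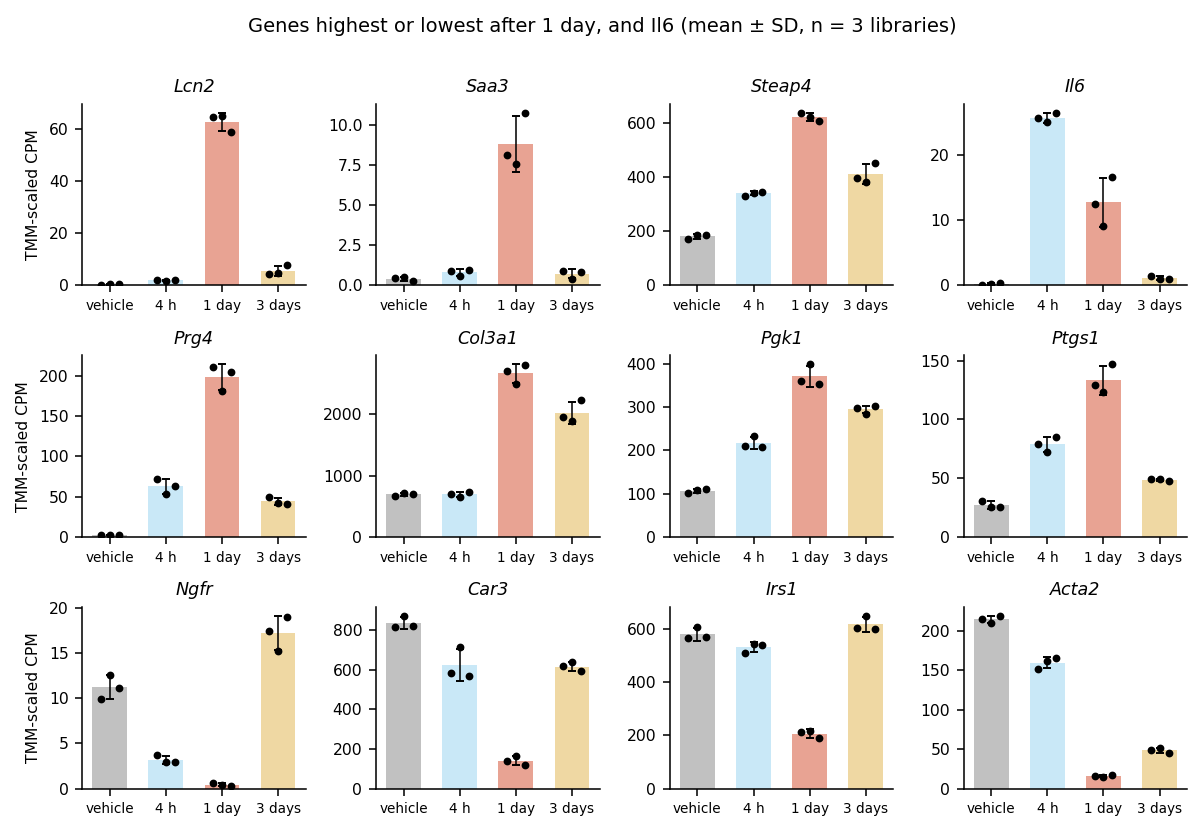
Levels in TMM-scaled CPM (linear axes from 0) in vehicle and after 4 h, 1 day and 3 days of forskolin; bars are means, error bars SD of 3 libraries, points single libraries. Lcn2, Saa3, Steap4, Prg4, Col3a1, Pgk1 and Ptgs1 are highest at 1 day, Il6 is highest at 4 h, and Ngfr, Car3, Irs1 and Acta2 are lowest at 1 day.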

How the data were processed

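RNA-seq libraries were made from 500 ng of RNA after removal of ribosomal RNA, per the labels' protocols. The authors deposited a table of read counts per gene, made with fastp, STAR and featureCounts on GRCm38 (mm10), per the submitters' processing notes; no version, strand or pair setting is given there. Of counts from 1 to 10 in the compared libraries 61.7% to 64.8% were even, and 49.5% to 51.0% of counts above 100, so intervals of ratios use counts divided by 2. Column names gave each library's group but not the labels' replicate numbers.

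All 15 libraries entered 1 fit with 1 mean per group and 10 residual degrees of freedom: edgeR 4.0.16 (R 4.3.3, limma 3.58.1), filterByExpr, TMM factors, robust quasi-likelihood tests, two-sided, with Benjamini-Hochberg adjustment over 14421 genes. Every adjusted p in the text comes from this test, except those given for another setting. SE is the log2 fold change divided by the square root of F. The common biological coefficient of variation was 5.97%. On counts simulated for this comparison (14202 genes), 72.9% of genes changed by 1.5-fold, 79.6% by 2-fold and 98% by 4-fold were recovered. Only 48 to 50 changed genes were tested per fold and all others were left equal, whereas 40.2% were called in the data. Of the unchanged genes 10 were called. Pairs of replicates differed by more than sampling noise (chi-square per degree of freedom 4.62 to 9.48).

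Named genes were the 15 largest rises and 15 largest falls among called, non-overlapping genes with a mean of at least 1 CPM in the higher group; up to 4 per direction in each list; the 8 largest peaks and troughs; and 16 fixed genes. A few genes that met the rule are not reported here. Genes named beyond it (Adrb1, Fos, Vcl, Actg2 and those with a motif) were chosen after their values were seen. The members and lists were chosen with earlier results of these data known. Coordinates are from GENCODE vM21 (GRCm38), to which 23376 symbols (95.7%) matched, and promoters from RefSeq (GRCm38.p6, 74.4% of tested genes). Alternatives were RLE factors, library size alone, DESeq2 1.42.0, other filters, halved counts, Rn45s left out, the 6 libraries alone and each library left out.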

Additional observations from a re-analysis of the deposited data

Results flagged for a closer look

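Some named genes were called in opposite directions against vehicle at 1 day and at another time of forskolin. With the direct difference called too in edgeR, these were 30 of 328 for 4 h and 50 of 328 for 3 days. The named genes include the 8 largest peaks and the 8 largest troughs, picked because 1 day differed from the other times. The selection therefore bears on these counts. Over all tested genes, 370 of the 2805 called higher at 1 day were called lower at 4 h, and 520 at 3 days. Of the 2986 called lower, 513 were called higher at 4 h and 478 at 3 days. These counts do not ask for a called direct difference, so they are not a like measure to set against those of the named genes. Values are given here for Ppargc1a and Adipoq, from the genes fixed by name. Ppargc1a was below vehicle at 1 day (-0.79 ± 0.09) but above it at 4 h and at 3 days. Its level at 1 day differed from that at 4 h by -2.008 on the log2 scale (adjusted p = 1.15e-17) and from that at 3 days by -1.427 (adjusted p = 5.27e-14). Adipoq was below vehicle at 1 day and above it at 3 days (0.22 ± 0.05, adjusted p = 0.000131), a difference of -1.361 between the times (adjusted p = 5.82e-22). In both genes the 3 FSK1D libraries lay below all 3 libraries of the other time. Groups of 3 libraries are too small for a test of single outlying libraries.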

How the results depend on the processing

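The counts of genes called between FSK1D and vehicle stayed within 1.5 times of those reported under every alternative run, and calls in the higher direction made up 42.3% to 52.8% of all calls, against 48.4% as reported. Between FSK1D and FSK4h, library size alone gave 2709 genes lower and 5974 higher, where TMM gave 4164 and 4096; the cause was not tested. No named gene reversed its direction, and 2 to 15 of 323 to 328 named genes lost their call under a given setting. With no filter beyond 1 count, Rn45s was called lower (-0.12, edgeR adjusted p = 0.00548), where the other settings gave an adjusted p of 0.061 to 0.717. Among list counts, CREB family genes called lower numbered 2 with no filter, where 4 were reported, and respiratory subunits called higher numbered 4 to 5 under 9 settings, where 2 were reported. No paired analysis was possible because the columns of the count table carry running library numbers and not the replicate numbers of the labels. Depth limits genes with few counts: those with under 30 counts over the vehicle libraries, such as Cxcl5, Ackr2 and Ucp1, have fold changes with wide counting intervals. The same holds for falls to few FSK1D counts. The counting interval of vehicle over FSK1D was 6.81 to 218 for Fam180a, 5.69 to 87.1 for Scg2 and 4.25 to 43.9 for Cdh3.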

Other observations

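Of 36 tested nuclear receptor genes 12 were called higher and 11 lower after 1 day, and of 24 core clock genes 9 higher and 6 lower. Bhlhe40, a repressor within the clock, was at 45.3, 46.6 and 41.5 CPM in vehicle and 139, 169.6 and 133 CPM in FSK1D. Among 31 NRF2 targets and antioxidant genes 15 were higher and 7 lower, and among 24 genes of iron import, storage and export 8 and 7. Over all tested genes 19.5% were called higher and 20.7% lower. The list medians were 0.04 for nuclear receptors, 0.09 for clock genes, 0.14 for NRF2 targets and 0.03 for iron genes.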
